A study of Mus musculus with 4 samples.

Results

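The NF-kappaB subunits and their feedback inhibitors are 10 genes, chosen by symbol from the 31053 genes of the deposited tables: Rela, Rel, Relb, Nfkb1, Nfkb2, Nfkbia, Nfkbiz, Bcl3, Tnfaip3 and Birc3. Their transcripts were counted in brain vascular-associated cells (BVACs), which are endothelial cells (EC) and the mural, glial, epithelial and immune cells recovered with them by magnetic beads against CD31, an endothelial adhesion molecule, after removal of the cerebellum, striatum, brainstem and olfactory bulbs. All animals were wild-type male C57BL/6 mice, with no transgene and no drug treatment, and both conditions were anesthetized with isoflurane before perfusion. In chronic social defeat (CSD), a mouse lived for 14 days in the cage of an aggressive CD-1 mouse behind a perforated partition. The partition was lifted daily for a short encounter. Home cage (HC) mice were pair-housed with a CD-1 mouse for 14 days, behind a partition that stayed in place. Each library was a pool of 4 mice, with 2 libraries per condition (CSD 1, CSD 2, HC 1 and HC 2), so that single animals cannot be told apart and n = 2 in every comparison of CSD with HC.

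NF-kappaB is a family of dimeric transcription factors that wait in the cytoplasm, bound by inhibitors of the IkB family. Cytokines such as TNF and IL-1 and ligands of Toll-like receptors activate the IKK kinase complex, IkB is degraded, and the dimers enter the nucleus and bind kB sites. Many of the genes they switch on are brakes on the pathway itself, so that transcripts of Nfkbia or Tnfaip3 are often read as a record of recent pathway activity. In brain endothelium the pathway drives adhesion molecules and chemokines, and in microglia cytokines and chemokines. Nuclear entry, the step that defines activation, is not measured by transcript counts.

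Since several of these genes are known to be targets of NF-kappaB, the bases before their RefSeq starts are shown first. The RefSeq tables of GRCm38.p6 held promoter windows for 7 of the 10 genes (10 windows, each the 250 bases before an annotated start), and Nfkbiz, Nfkb1 and Relb had none. Both strands were searched for the kB consensus, and overlapping matches were joined. It was found for Nfkbia, Tnfaip3, Nfkb2 and Rel, in 6 windows, and was not in the windows of Rela, Bcl3 and Birc3. Of all 32851 windows of this length, 1281 (3.90%) held a match. The window of Nfkbia lies on the minus strand at chr12:55492648-55492897, directly before the gene in GENCODE vM21 (chr12:55489410-55492647), and its match lies 29 to 20 bases before the start. That of Rel also lies outside the gene (chr11:23736847-23770970) but for 1 base. The windows of Tnfaip3 and Nfkb2 precede RefSeq starts that lie inside the bounds of the GENCODE genes (chr10:19000910-19015657 and chr19:46304320-46312385), so that 247 of the 250 bases of the Tnfaip3 window shown and all 250 of each Nfkb2 window are within the gene. The other stretches of 30 bases lie on the minus strand at chr10:19015516-19015545 and chr10:19015411-19015440 for Tnfaip3 and at chr11:23771042-23771071 for Rel, and on the plus strand at chr19:46304688-46304717, chr19:46304707-46304736, chr19:46305449-46305478 and chr19:46305695-46305724 for Nfkb2, whose last 2 belong to the windows of its other starts. They are printed 5′ to 3′ along the strand of the gene, with bases that match the consensus in capitals. The second Nfkb2 stretch begins with the last bases of the first match.
Nfkbia: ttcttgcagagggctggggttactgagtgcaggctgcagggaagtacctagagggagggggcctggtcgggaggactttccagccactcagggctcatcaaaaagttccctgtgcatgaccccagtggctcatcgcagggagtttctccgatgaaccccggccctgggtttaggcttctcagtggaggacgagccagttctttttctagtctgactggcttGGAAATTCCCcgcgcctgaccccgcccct
Tnfaip3, match 125 bases before the RefSeq start: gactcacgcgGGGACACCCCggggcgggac
Tnfaip3, match 12 bases before the RefSeq start: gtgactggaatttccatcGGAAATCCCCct
Nfkb2, match 39 bases before its first RefSeq start: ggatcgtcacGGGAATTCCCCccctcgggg
Nfkb2, match 11 bases before its first RefSeq start: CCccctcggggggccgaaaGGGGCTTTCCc
Nfkb2, match 236 bases before another start: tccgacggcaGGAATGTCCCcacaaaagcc
Nfkb2, match 225 bases before another start: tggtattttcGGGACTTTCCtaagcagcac
Rel: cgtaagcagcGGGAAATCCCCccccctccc
A match describes these letters and does not show that a factor binds there.

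Cells were grouped by marker genes, and none of the 10 genes is a marker. Of 14415 cells, 11950 entered 1 of 16 classes, and 9 classes and 3 divisions of the EC had at least 10 cells in every library. EC (4829 cells) and microglia (4374 cells) were the largest. Summed EC markers reached 24410 to 28830 CPM (counts per 1000000 UMIs of the class in a library) in EC and 50.1 to 164 CPM in microglia, and summed microglial markers 16480 to 18890 CPM in microglia and 88.9 to 178 CPM in EC. The libraries held 27297599 to 30361474 UMIs, of which 32.6% (CSD 2) to 56.8% (HC 1) lay in cells, and pairs of libraries shared 0 to 9 cell barcodes. Median depth per cell was 857 to 1441 UMIs in EC and 1849 to 4842 UMIs in microglia. Levels are given in this unit. They are compared between classes and conditions and not between genes.

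Microglia had the highest mean level of the 12 classes for 5 genes (Rel, Nfkb1, Nfkbiz, Tnfaip3 and Birc3), venous EC for 4 (Nfkbia, Rela, Relb and Bcl3) and ependymal cells for Nfkb2. The ranges of venous EC and microglia overlapped for all 4 of these genes, and over the HC libraries alone microglia had the higher mean for each of the 4 (2669 against 1989 CPM for Nfkbia, 92.0 against 75.0 for Rela, 59.3 against 8.97 for Relb and 18.9 against 17.9 for Bcl3). Bcl3 in venous EC rests on 4 UMIs, with 2 libraries at 0, and Nfkb2 in ependymal cells overlapped microglia as well. Rel and Tnfaip3 had the largest differences between microglia and EC, whereas Nfkbia was abundant in both. All 8 of the 10 genes that passed the filter on low counts were higher in microglia than in EC in edgeR's quasi-likelihood test over the 4 libraries (Benjamini-Hochberg, threshold 0.05), where 33.5% of all genes tested were higher. The filter needed enough counts in only 4 sums of a library and class, so a gene high in microglia alone could enter. Counts of genes higher or lower between classes, here and below, are therefore descriptions and not a test of the group.

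**Figure D1:**
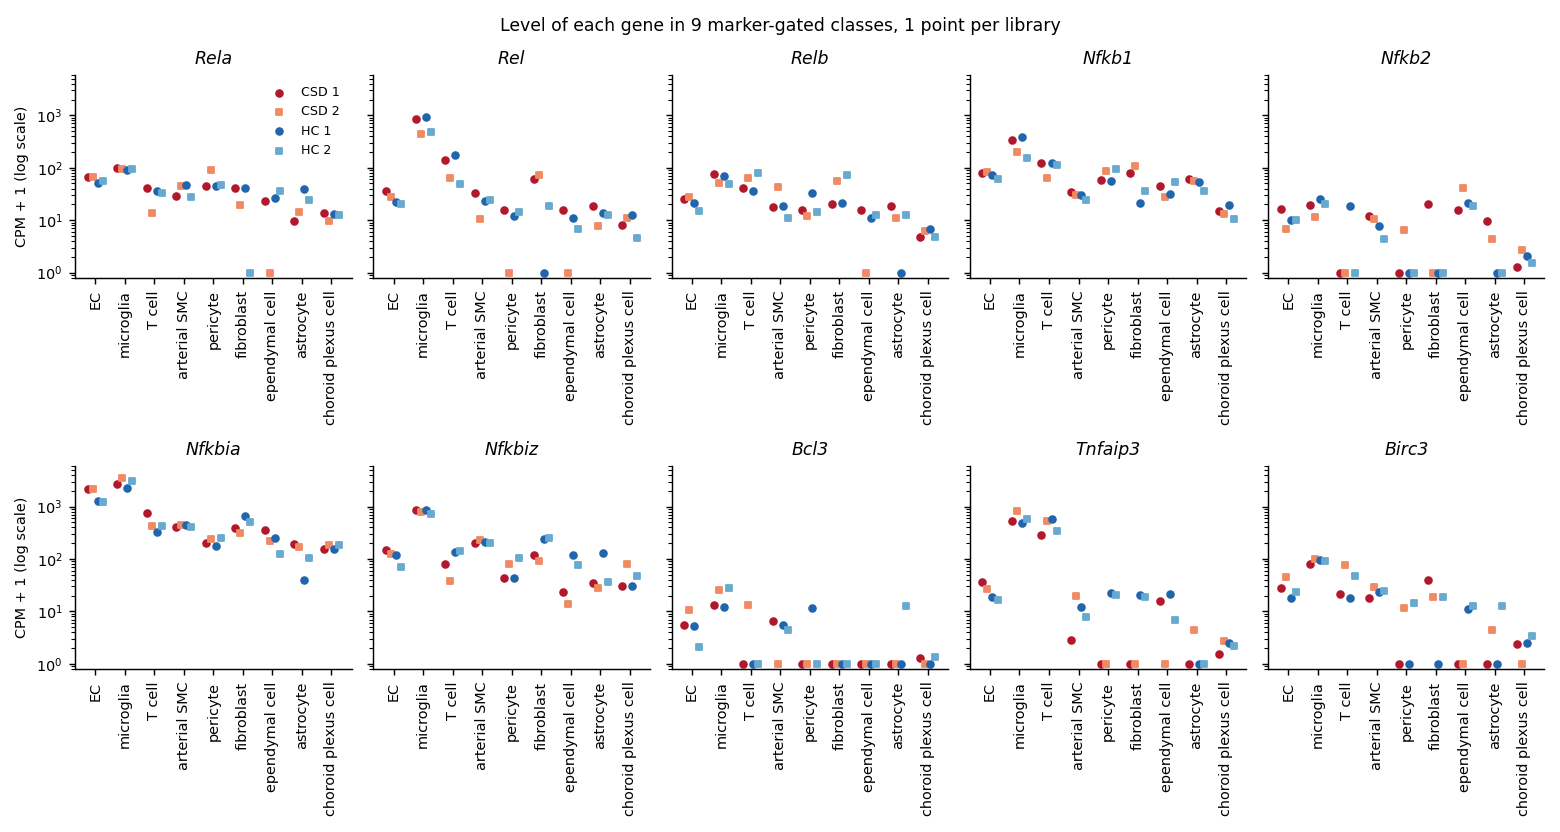
Level of each of the 10 genes (CPM + 1, vertical axis, logarithmic) in the 9 cell classes (horizontal axis), with 1 point per library (red and orange, CSD 1 and 2; dark and light blue, HC 1 and 2), so that a library with no UMI stands at 1. Microglia lie above the other classes for Rel, with library values from 437 to 928 CPM, whereas Nfkbia is high in EC as well.

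Among the subunits with a transactivation domain, Rel (c-Rel) had 850 CPM in CSD 1, 437 in CSD 2, 928 in HC 1 and 489 in HC 2 in microglia. In EC it had 35.0, 26.4, 21.2 and 19.2 CPM in the same order. Every microglial library thus lay far above every EC library, with a log2 fold change of 5.03 (SE 0.19, adjusted p = 8.19e-30). T cells came next in the order of levels, at 105 CPM on average, and they too were higher than EC (log2 fold change 1.97, adjusted p = 6.37e-05). Rela (p65), the most widely studied transactivating subunit, differed less between classes, with 90.3 to 98.4 CPM in microglia, 50.5 to 66.4 CPM in EC and 43.2 to 91.4 CPM in pericytes. Its log2 fold change of microglia against EC was 1.02 (SE 0.15), and pericytes and EC did not differ beyond their spread. Relb, the partner of p52 in the non-canonical pathway, had 48.8 to 75.2 CPM in microglia and 14.1 to 26.4 CPM in EC, and the difference passed the test with a log2 fold change of 1.88 (SE 0.19).

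The other subunits are made as precursors, p105 from Nfkb1 and p100 from Nfkb2, which act as inhibitors until they are processed. Nfkb1 had 330, 194, 388 and 150 CPM in the microglia of CSD 1, CSD 2, HC 1 and HC 2, and 76.6, 81.5, 70.5 and 59.9 CPM in EC. The lowest microglial library was well above the highest EC library, at a log2 fold change of 2.17 (SE 0.16, adjusted p = 7.28e-18 in edgeR). Nfkb2 was sparse everywhere. Its highest class means were 23.0 CPM in ependymal cells, on 12 UMIs, and 18.1 CPM in microglia, on 190 UMIs, and it was not tested between classes.

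Nfkbia encodes IkBalpha, the inhibitor that is degraded and then made again within the same response. It had 2721, 3553, 2309 and 3030 CPM in microglia of CSD 1, CSD 2, HC 1 and HC 2, and 2172, 2175, 1288 and 1221 CPM in EC. Even the lowest microglial library was above the highest EC library (log2 fold change 1.14, SE 0.20, adjusted p = 2.15e-06). The order of class means began with venous EC at 3297 CPM (SD 1595), whose range overlapped that of microglia, then EC, capillary EC and arterial EC, whose ranges overlapped each other. T cells, fibroblasts and arterial smooth muscle cells (SMC) followed at 424 to 487 CPM and could not be ordered by their ranges. Nfkbia was lower than EC in all 7 other classes tested, with log2 fold changes from -3.58 in astrocytes to -1.80 in arterial SMC. Free RNA, read from barcodes with at most 100 UMIs, held 260 to 368 CPM of Nfkbia. Ependymal cells, pericytes, choroid plexus cells and astrocytes, with means of 238, 215, 171 and 125 CPM, were at or below that level. Tnfaip3 had 44.5 to 62.8 CPM in free RNA and lower means of 1.23 CPM in choroid plexus cells and 0.85 CPM in astrocytes. The part of free RNA in the Nfkbia counts of the classes at or below its level was not tested.

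Of the nuclear members of the IkB family, Nfkbiz (IkBzeta) had 844, 791, 849 and 714 CPM in microglia and 144, 122, 120.5 and 68.4 CPM in EC (log2 fold change 3.17, SE 0.22). It was also the single gene of the 8 tested that was higher in arterial SMC than in EC, where 23.1% of all genes were higher. Its level in arterial SMC was 199 to 226 CPM, with 56.2 to 76.3 CPM in free RNA. The log2 fold change was 1.04 (SE 0.24, adjusted p = 0.000192 in edgeR). Bcl3, which joins p50 or p52 dimers at DNA, was sparse. It had 11.0 to 26.8 CPM in microglia, 1.13 to 9.76 CPM in EC (38 UMIs in all) and no UMI in fibroblasts or ependymal cells.

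Tnfaip3 encodes A20, a ubiquitin-editing enzyme that ends signaling upstream of IKK. Microglia had 521, 822, 484 and 568 CPM and T cells 281, 521, 586 and 344 CPM. These were the high classes and their ranges overlapped, whereas EC had 35.0, 26.4, 17.9 and 15.8 CPM, below the 44.5 to 62.8 CPM of free RNA. Microglia differed from EC by a log2 fold change of 4.99 (SE 0.21, adjusted p = 3.34e-28) and T cells by 4.21 (SE 0.28, adjusted p = 1.40e-18). Birc3 encodes cIAP2, a ubiquitin ligase at TNF receptors, and had 77.7 to 99.1 CPM in microglia and 17.4 to 43.5 CPM in EC (log2 fold change 2.10, SE 0.18).

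The remaining classes were mostly at or below EC. In choroid plexus cells all 8 genes tested were lower, against 42.1% of all genes, from -3.40 for Tnfaip3 to -0.69 for Nfkbiz. In pericytes 3 were lower (Nfkbia, Birc3 and Rel, background 21.3%), in fibroblasts 2 (Nfkbia and Rela, background 18.9%), in ependymal cells 5 (background 31.0%) and in astrocytes 5 (background 28.0%). Arterial SMC had 4 lower, Nfkbia, Tnfaip3, Nfkb1 and Rela, where 29.3% of genes were lower. T cells had 3 higher, Tnfaip3, Rel and Relb (background 11.0%), and 1 lower, Nfkbia (background 27.4%). Where levels were at or below those of free RNA, its part in them was not tested, which limits what the lower calls can show.

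The other genes of the pathway followed no single order between microglia and EC. Of the IkB family outside the 10 genes, Nfkbid (IkBNS) and Nfkbib (IkBbeta) were tested and both were higher in microglia, by 5.94 and 2.97 on the log2 scale. Of 6 genes of the IKK complex and its activators that were tested, 2 were higher, Tab2 and Myd88, a share near the background of 33.5%, and none was lower, where 32.6% of all genes were. Ikbkb, the catalytic IKK subunit, had a log2 fold change of -0.24 that did not pass the test. Of 9 tested genes for other brakes on the pathway 4 were higher and 1 was lower, and Zc3h12a (regnase-1, which cleaves cytokine mRNAs) was higher by 3.34. Of 21 tested target genes 15 were higher, among them the chemokines Ccl3 (8.39) and Ccl4 (7.98), and 3 were lower. A list of immediate-early and dissociation genes, chosen outside the pathway, had 11 of 16 tested genes higher in microglia and 1 lower (median 0.94). The part of a response to tissue dissociation in the differences between microglia and EC was not tested.

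Within the EC, Nfkbia had 4406, 4806, 2583 and 1395 CPM in the venous cells of CSD 1, CSD 2, HC 1 and HC 2 and 1937, 2010, 1159 and 1154 CPM in the capillary cells. Venous cells were above capillary cells in each of the 4 libraries, with a log2 fold change of 1.07 (SE 0.15, adjusted p = 3.18e-06 in edgeR with the library as a block). A stricter gate (at least 4 markers of a class, and a lead of 3 for the divisions) left 3 to 8 venous cells per library and a Nfkbia log2 fold change of 0.32 that no longer passed (adjusted p = 0.563). Nfkbiz had 354, 186, 682 and 192 CPM in venous and 96.8, 112, 68.8 and 50.6 CPM in capillary cells (log2 fold change 2.28, SE 0.31, adjusted p = 2.29e-06), and without HC library 1 the log2 fold change was 1.45 (adjusted p = 0.0314). These were 2 of 3 genes tested, where 4.71% of genes were higher in venous cells, and Rela, the third, had a log2 fold change of 1.05 (adjusted p = 0.176). Venous EC were 10 to 21 cells per library, and the Nfkbiz level rests on 59 UMIs. In arterial EC none of 3 genes differed from capillary EC in edgeR, at an unadjusted p under 0.05 or in DESeq2, where 21.1% of genes did.

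CSD was then compared with HC within each class, to ask whether the defeat procedure went with a change of the pathway's own genes. In EC, 8 of the 9 genes tested had both CSD libraries above both HC libraries (all but Nfkb2), and in microglia 0 of 10 did. The shares over all genes tested were 14.7% in EC and 7.94% in microglia. The 10 genes and the other lists were chosen with earlier results of these data known. Such shares and medians, here and below, are therefore descriptions and not a test of the group. None of the 9 passed edgeR's threshold in EC, where 7 of 9854 genes did (0.0710%). At an unadjusted p under 0.05 there were 6 of the 9, and DESeq2 called 1, Nfkbia. The number of all genes at that unadjusted p is given below only for microglia and for the test between microglia and EC. Such counts in EC, its divisions and other classes therefore stand without a background.

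Nfkbia in EC averaged 2173 ± 2.18 CPM in CSD and 1255 ± 47.2 CPM in HC (SD, n = 2). The CSD libraries were nearly equal, and the gap to HC was larger than the spread within either condition. A spread from 2 libraries is itself poorly known. The SDs in CSD and HC were 212 and 177 CPM in arterial EC and 283 and 840 CPM in venous EC, on fewer cells. The log2 fold change was 0.86 (SE 0.15), with an adjusted p of 0.0988 in edgeR and of 0.000127 in DESeq2. The edgeR value fell under the threshold without CSD library 1 (adjusted p = 0.000555) and without CSD library 2 (adjusted p = 0.000796), and was 0.395 without HC library 1 and 0.741 without HC library 2. With 1 library left in a condition, the spread comes from the libraries of the other condition alone, and the lone library is assumed to vary like them. With the library number as a replicate block it was 0.0349. The estimate itself stayed between 0.80 and 0.92 over these and all other settings tried. Capillary EC gave 0.81 (SE 0.15, adjusted p = 0.0647 in edgeR, 0.000629 with the replicate block and 0.000411 in DESeq2), arterial EC, with 2060, 1760, 976 and 1227 CPM, 0.80 (adjusted p = 0.265) and venous EC 1.16 (adjusted p = 0.292). In all 3 divisions both CSD libraries were above both HC libraries.

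**Figure D2:**
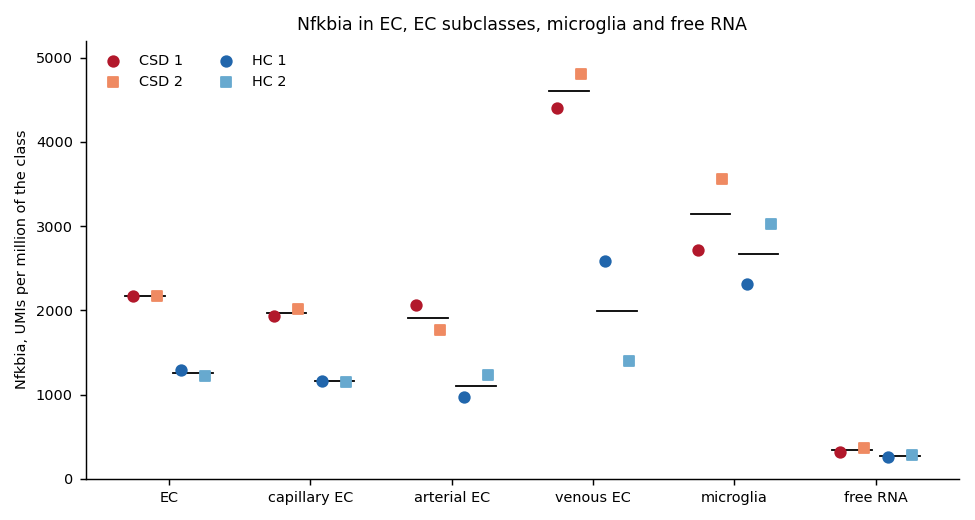
Nfkbia level (CPM, vertical axis from 0) in all EC, in capillary, arterial and venous EC, in microglia and in free RNA, with 1 point per library (red and orange, CSD 1 and 2; blue, HC 1 and 2) and a line at each condition's mean. In all EC the CSD libraries sit at 2172 and 2175 CPM and the HC libraries at 1288 and 1221 CPM.

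The share of EC with a detected UMI of Nfkbia was higher in CSD, and so was the share with several. Both shares rise with the mean level, so they do not show whether more cells expressed the gene. After each cell had been thinned to 500 UMIs, 56.4% of EC in CSD 1 and 56.2% in CSD 2 had a UMI of Nfkbia, against 39.3% in HC 1 and 39.8% in HC 2. At 3 or more UMIs the shares were 8.66%, 8.13%, 2.98% and 3.09%. Both measures placed the CSD libraries above the HC libraries, by 16.8 percentage points for the first, and the exact two-sided permutation test gave p = 0.333, the smallest that 2 against 2 libraries allow. Unthinned shares were 80.9%, 82.0%, 71.5% and 57.9%. Astrocytes, whose level was below that of free RNA, had thinned shares of 1.25% to 10.0%, at a median depth of 816 to 1204 UMIs per cell. Thinned shares in microglia were 62.6%, 60.3%, 54.9% and 67.1%, with the HC libraries on either side of the CSD libraries.

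**Figure D3:**
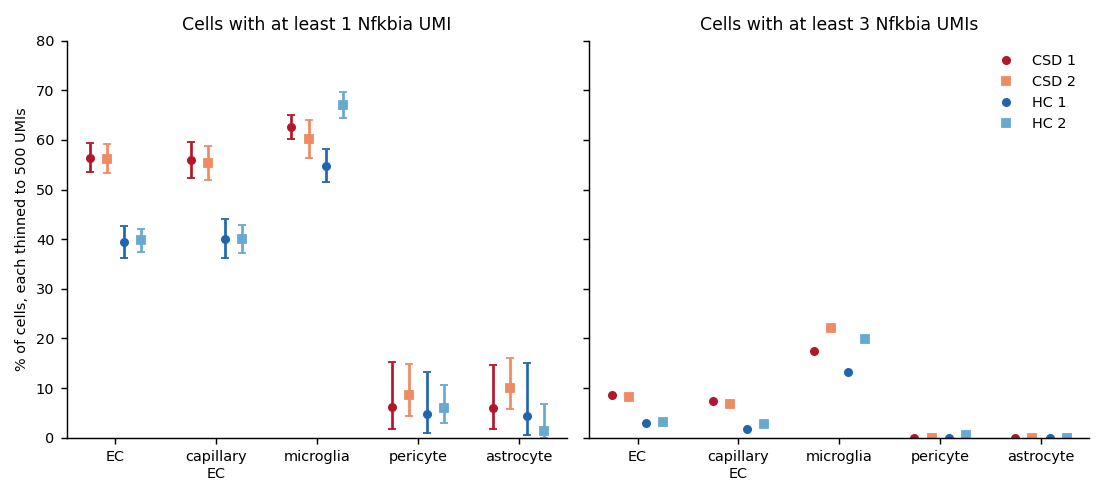
Share of cells with an Nfkbia UMI (percent, vertical axis from 0) in EC, capillary EC, microglia, pericytes and astrocytes after thinning to 500 UMIs, with 1 point per library and, on the left, exact (Clopper-Pearson) 95% intervals that cover counting error only, and on the right the share with 3 or more UMIs. CSD libraries (red and orange) are above HC libraries (blue) in EC, at 56.4% and 56.2% against 39.3% and 39.8%, and not in microglia.

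Free RNA moved in the same direction, with 320 and 368 CPM of Nfkbia in CSD and 260 and 287 CPM in HC. That difference of 70.5 CPM compares with 919 CPM in EC. Of 15 marker lists of other cell types, 3 were higher in the EC of both CSD libraries. Another 2, those of choroid plexus cells and T cells, were lower in both. The oligodendrocyte list (1441, 1180, 824 and 833 CPM) was almost all Mal, with Mog and Opalin at 0 to 2 UMIs. The list of Ccr2+ monocytes (827, 1034, 783 and 713 CPM) was almost all Fn1, with Ccr2 at 0 in every library. The neutrophil list had 13.3, 4.88, 2.71 and 2.83 CPM, with S100a8 at 4, 3, 0 and 0 UMIs, S100a9 at 13, 7, 0 and 0 UMIs, Csf3r at 2, 0, 4 and 5 UMIs and Ly6g, Mmp9, Camp and Ngp at 0. The part of these lists in the Nfkbia difference was not tested. The microglial list, at 135, 88.9, 98.8 and 178 CPM, did not separate CSD from HC.

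Among the other inhibitors in EC, Nfkbiz had 144 and 122 CPM in CSD and 120.5 and 68.4 CPM in HC, so that its groups were only just apart (log2 fold change 0.55, SE 0.25, adjusted p = 0.597), and leaving out libraries gave 0.19 (without HC 2) to 1.05 (without HC 1). In capillary EC they were further apart, at 96.8 and 112 against 68.8 and 50.6 CPM (0.85, SE 0.20, adjusted p = 0.141). Tnfaip3, with the largest estimate of the 9 (0.92, SE 0.25, adjusted p = 0.293), stood below the level of free RNA in every EC library. Leaving out libraries gave 0.68 to 1.12 for it. In capillary EC the Tnfaip3 estimate was 0.25 (SE 0.35, adjusted p = 0.892 in edgeR). The groups overlapped there, at 22.0 and 15.3 CPM in CSD and 16.5 and 14.9 CPM in HC. Birc3 had 26.6 and 43.5 CPM in CSD and 17.4 and 22.0 CPM in HC (0.90, SE 0.28, adjusted p = 0.359), with 0.51 without CSD library 2 and 1.18, past the threshold, without CSD library 1 (adjusted p = 0.00509). Bcl3, with 8, 20, 8 and 2 UMIs in EC, was left out by the filter.

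Among the subunits, Rel had an estimate of 0.66 (SE 0.24; 0.42 without CSD library 1), with EC levels within those of free RNA (19.1 to 60.9 CPM). Relb, at 23.9 and 26.4 against 20.1 and 14.1 CPM, had 0.61 (SE 0.26; 0.37 without HC library 2), and 0.22 in capillary EC (SE 0.32, adjusted p = 0.902 in edgeR). Rela had 65.0 and 66.4 CPM in CSD and 50.5 and 54.8 CPM in HC, without overlap (0.38, SE 0.16, adjusted p = 0.560). Nfkb1 gave 0.34 (SE 0.16; 0.21 without HC library 2), and Nfkb2, at 15.5, 5.86, 9.22 and 9.04 CPM, was the one gene whose groups overlapped (0.27, SE 0.49). The median estimate over the 9 genes was 0.61, against 0.00 over all genes tested. In capillary EC 5 of 9 genes, Nfkbia, Nfkbiz, Birc3, Rela and Relb, had both CSD libraries higher, where 15.8% of genes did. There edgeR called 0 of the 9 (4 at an unadjusted p under 0.05) and DESeq2 called 1, and 0.204% of genes passed in edgeR.

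**Figure D4:**
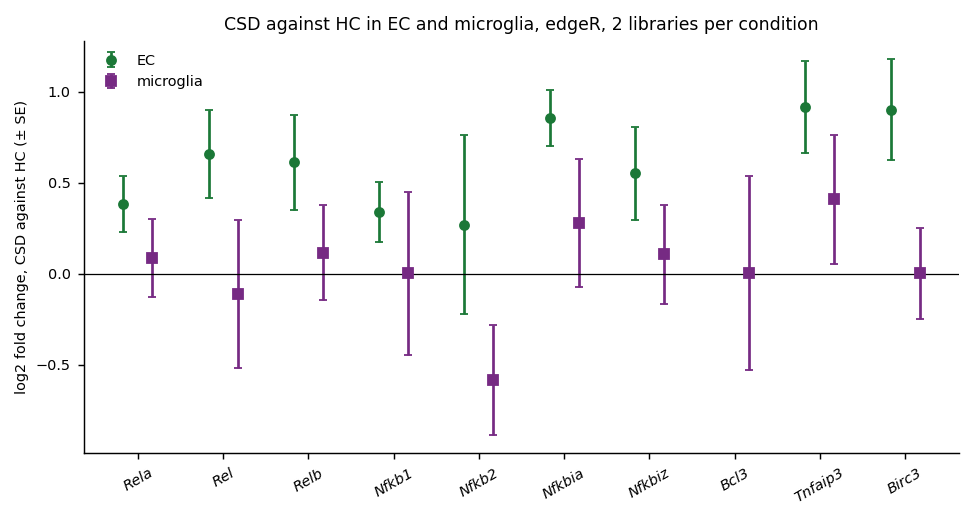
Log2 fold change of CSD against HC (vertical axis, with bars of 1 SE derived from edgeR's F statistic) for the 10 genes (horizontal axis) in EC (green) and microglia (purple). The 9 estimates in EC lie between 0.27 and 0.92, those in microglia between -0.58 and 0.41, and Bcl3 was not tested in EC.

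In microglia none of the 10 genes passed, none had an unadjusted p under 0.05 and DESeq2 called none, as edgeR called none of 9889 genes (0%, with 135 at an unadjusted p under 0.05 and 1 call in DESeq2). Nfkbia averaged 3137 ± 588 CPM in CSD and 2669 ± 510 CPM in HC, and Tnfaip3 671 ± 213 CPM and 526 ± 59.6 CPM. Both differences, 0.28 (SE 0.35) and 0.41 (SE 0.35) on the log2 scale, were within the spread of the libraries. The lowest estimate was that of Nfkb2 at -0.58 (SE 0.30), and the median of the 10 was 0.05. The standard errors in microglia were larger than in EC for Nfkbia, Tnfaip3, Nfkb1, Rel, Rela and Nfkbiz, so that these estimates are less precise. They were smaller for Relb, Birc3 and Nfkb2.

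The microglial spread ran along the library numbers. Libraries numbered 1 had more Rel (850 and 928 CPM) than those numbered 2 (437 and 489 CPM), and Nfkb1, Nfkbiz and Relb were ordered in the same way. Bcl3, Nfkbia and Tnfaip3 had the opposite order. These 4 and 3 of 10 genes stand beside 38.0% of all genes tested in microglia that were higher in both libraries numbered 1 and 18.0% that were lower. The labels do not say whether a number marks a shared batch. Of the 17 immediate-early and dissociation genes, 9 were higher in both libraries numbered 1.

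**Figure D5:**
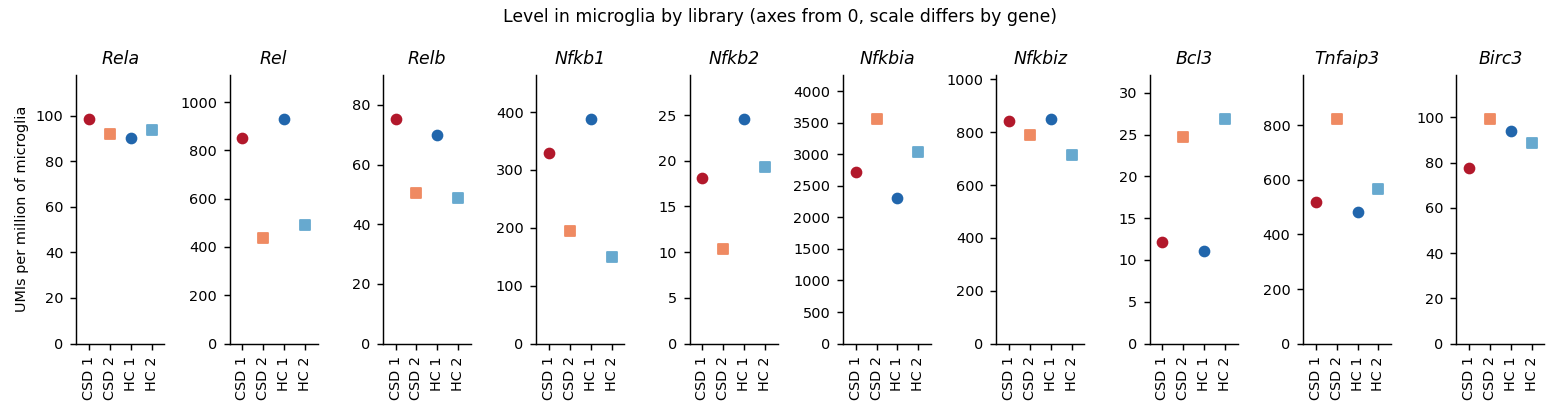
Level (CPM, vertical axes from 0, with a scale for each gene) of the genes in the microglia of each library, with circles for libraries numbered 1 and squares for those numbered 2 (red and orange, CSD; blue, HC). Rel, Nfkb1, Nfkbiz and Relb are higher in both libraries numbered 1, and Nfkbia, Tnfaip3 and Bcl3 in both numbered 2.

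Whether the CSD effect differed between microglia and EC was tested by the interaction of class and condition. None of the 10 genes passed in edgeR, and none of 11167 genes did (0%, with 363 at an unadjusted p under 0.05; DESeq2 was not run for this term). All 10 estimates were below 0, with a median of -0.56, and only that of Birc3 (-0.87, SE 0.33) had an unadjusted p under 0.05. A difference between EC and microglia is therefore not shown for any of these genes.

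Outside EC and microglia few of the genes passed the filter. Over the 12 classes and divisions, 51 tests of a gene were made, of which edgeR called 0, 14 had an unadjusted p under 0.05 and DESeq2 called the 2 given above. Of the 14, 6 were in EC and 4 in capillary EC, whose cells are part of EC. The shares of all genes called by edgeR were 0.0438% in pericytes, 0% in arterial SMC, fibroblasts, ependymal cells and T cells, 0.0712% in choroid plexus cells, 0.201% in astrocytes, 0.468% in arterial EC and 0.778% in venous EC. Nfkbia was tested in every class. Its levels were equal within their spread in arterial SMC (402 and 449 CPM in CSD, 445 and 401 CPM in HC), with a log2 fold change of -0.02 (SE 0.20). Fibroblasts had 394 and 307 CPM in CSD and 673 and 516 CPM in HC, lower in both CSD libraries (-0.65, SE 0.36, adjusted p = 0.743), on 10 to 30 cells per library. T cells, with 763 and 435 CPM in CSD and 327 and 422 CPM in HC, gave 0.70 (SE 0.35, adjusted p = 0.774). Astrocytes had 190 and 166 against 38.8 and 106 CPM, on 22, 49, 3 and 9 UMIs. Their log2 fold change was 1.16 (SE 0.57, unadjusted p = 0.0422, adjusted p = 0.9996 in edgeR). In both classes the CSD libraries were above the HC libraries, and the share of all genes so ordered is not given there. Ependymal cells gave 0.62 (SE 0.35), at or below the level of free RNA. Astrocytes, pericytes (0.09) and choroid plexus cells (-0.04) were below that level in every library. Besides EC, capillary EC and microglia, Nfkbiz was tested in 6 classes and divisions, and its estimate was below 0 in 3. In ependymal cells it had 22.0 and 13.1 CPM in CSD and 116 and 76.5 CPM in HC, on 3, 1, 23 and 13 UMIs (-2.35, SE 0.66, unadjusted p = 0.0021, adjusted p = 0.991 in edgeR), with 56.2 to 76.3 CPM in free RNA. Fibroblasts had 118 and 90.2 against 238 and 249 CPM (-1.11, SE 0.53, adjusted p = 0.700), and venous EC gave -0.88 (SE 0.60, adjusted p = 0.897) with overlapping groups.

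The rest of the pathway in EC was compared in the same fit. Of the IkB family outside the 10 genes, 2 were tested and 0 were called. Among the IKK complex and its activators 0 of 17 were called, with 11 estimates above 0 and a median of 0.27. The other brakes had 0 of 12 called, among them Zfp36, which promotes decay of cytokine mRNAs, at 556 and 851 CPM in CSD and 416 and 469 CPM in HC (0.73, SE 0.20, adjusted p = 0.293). At an unadjusted p under 0.05 these lists held 0, 1 and 2 genes, and DESeq2 called none of them. Of 17 target genes tested in EC, 2 rose, Lcn2, a secreted iron-carrier protein, at 69.4 and 119 against 2.71 and 1.70 CPM (5.43, SE 0.40, adjusted p = 0.00219), and the chemokine Cxcl1 at 173 and 241 against 72.2 and 56.0 CPM (1.75, SE 0.21, adjusted p = 0.0302). At an unadjusted p under 0.05 there were 9 of the 17, and DESeq2 called 3, these 2 and Vcam1, an adhesion molecule for leukocytes (282 and 332 against 137 and 79.1 CPM, 1.56, SE 0.24, adjusted p = 0.0767 in edgeR). The estimates of 8 of the 17 were below 0, and the median was 0.11. Lcn2 is also a gene of neutrophils, and the part of the neutrophil transcripts given above in its difference was not tested.

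Lists of genes chosen for other responses had estimates in the same direction in EC. All 17 immediate-early and dissociation genes had estimates above 0, with a median of 0.61 and 13 of 17 higher in both CSD libraries, and all 11 tested glucocorticoid targets had such estimates, with a median of 0.77 and 9 of 11 higher in both. No gene of either list was called in edgeR, 12 and 9 had an unadjusted p under 0.05, and DESeq2 called 3 and 2. Examples are the phosphatase gene Dusp1 (953 and 1415 against 672 and 763 CPM) and Tsc22d3, which encodes the glucocorticoid-induced leucine zipper (940 and 997 against 574 and 616 CPM). Nfkbia itself is known as a glucocorticoid target and responds to tissue dissociation, and the part of either in the difference was not tested. In microglia the glucocorticoid list also had 11 of 11 estimates above 0 (median 0.49, 0 called, 4 at an unadjusted p under 0.05 and 1 in DESeq2).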

How the data were processed

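UMI counts were made by the authors with Cell Ranger (version 4.0 on GRCm38/mm10 per the labels' processing notes, while the paper and the file headers name other versions) and deposited as whole-number counts per gene and barcode for 4 libraries, before cell calling. The authors' chemistry was 10x Genomics 3′, which reads the strand, and no row lacked a gene name.

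Barcodes with at least 500 UMIs, at least 250 genes and at most 25% mitochondrial UMIs were kept as cells. A cell entered a class with UMIs of at least 3 of its markers and a share of markers at least 2 times that of any other class, which leaves out cells with markers of several classes. No doublet caller was run. EC divisions had a lead of at least 2 markers. Counts were summed per library and class with at least 10 cells in every library and tested, two-sided, with edgeR 4.0.16 in R 4.3.3 (filterByExpr, TMM, glmQLFit and glmQLFTest, Benjamini-Hochberg over all genes tested, threshold 0.05). Classes were compared with the library as a block. The edgeR test returns no standard error, so each SE given is the absolute log2 fold change divided by the square root of the F statistic, an approximation. The paper tested single cells, which are not replicates, so sums were used. DESeq2 1.42.0 was an alternative, beside RLE size factors, no filter on low counts, leaving out each library, a replicate block, at least 1000 UMIs per cell, the paper's complexity limit and a stricter gate. Whether the libraries differ in batch is not given in the sources used here, and p-values measure the spread between these pooled libraries. Intervals are exact (Clopper-Pearson, 95%), cover counting error only, and a count of 0 allows up to 3 UMIs.

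The members and gene lists were chosen with earlier results of these data known. Text names all 10 members, and from other lists up to 5 called genes with the largest change and up to 3 of the highest level. Tab2, Myd88, Nfkbid, Nfkbib, Dusp1, Tsc22d3, Zc3h12a, Ccl3, Ccl4, Vcam1 and the markers of other cell types are named beside counts, some after their values were seen. Positions are from GENCODE vM21 (GRCm38). Python 3.11.15 was used for sums and figures.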

Additional observations from a re-analysis of the deposited data

How the results depend on the processing

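No alternative turned the direction of a gene's class difference from EC: of 400 values for 40 such calls, 362 stayed past the threshold and 38 did not, and 31 to 48 member calls were made over 8 classes (40 as reported). For CSD against HC in EC, DESeq2 called 1 of the 10 members and 60 genes, the replicate block 1 and 71, and at least 1000 UMIs per cell 17 genes (7 as reported). Leaving out libraries gave 0 to 2 members and 7 to 384 genes, with 384 without CSD library 1 and 154 without CSD library 2. In capillary EC, members and genes called were 1 and 42 in DESeq2, 3 and 176 with no filter and 3 and 211 with the replicate block, with 1 member under the stricter gate, 5 genes with RLE and 6 at 1000 UMIs (18 as reported), and 0 to 3 and 1 to 365 without a library. In microglia 1, 23 and 35 genes were called in DESeq2, with no filter and with the block, 0 to 21 without a library, and the block called 1 member in the other 9 classes. Venous EC had 5 members called with no filter, 1 under the stricter gate and 2 to 4 without a library, and arterial EC 1 under the stricter gate. For the interaction 14 genes were called with no filter, 1 under the stricter gate and 2 to 11 without a library.

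Estimates near 0 changed sign. In microglia, at 1000 UMIs, Nfkb1 was -0.000168, Bcl3 -0.0275 and Birc3 -0.0270, and Birc3 was -0.0174 with the block and -0.000344 under the stricter gate. Nfkbia in pericytes was -0.13 at 1000 UMIs and -0.00464 under the stricter gate, and in choroid plexus cells 0.00031 with the block. Rela in arterial against capillary EC was -0.0398 with no filter. Leaving out libraries, estimates ran from -0.59 to 0.83 for Nfkb2 in EC, from -0.00044 to 0.55 for Tnfaip3 and -0.54 to 0.20 for Nfkb2 in capillary EC, and in microglia from -0.0177 to 0.56 for Nfkbia, -0.0570 to 0.77 for Tnfaip3, -0.48 to 0.79 for Nfkb1, -0.56 to 0.38 for Rel, -0.10 to 0.36 for Relb, -0.68 to 0.85 for Bcl3 and -0.27 to 0.24 for Birc3. For Nfkbia they ran from -0.16 to 0.49 in pericytes, -0.11 to 0.0625 in arterial SMC and -0.20 to 0.19 in choroid plexus cells. The interaction ran from -1.20 to 0.11 for Tnfaip3, -0.73 to 0.27 for Nfkb1 and -3.17 to 0.12 for Bcl3.

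Same-numbered libraries deviated together with a correlation of 0.07 in EC and 0.42 in microglia. With 2 pairs and no label that says so, the numbers are not taken to pair the libraries. With the block, Nfkbia in EC had an adjusted p of 0.0349 in edgeR. Where a setting moved a count the cause was not tested. With 2 libraries per condition, and Bcl3 and Nfkb2 on few UMIs, small changes were not detectable.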

Other observations

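Border-associated macrophages, which patrol the vessel and meningeal borders, had fewer than 10 cells in CSD 2 and HC 2 and entered no comparison. Their 82 cells had 1916 and 1921 CPM of Nfkbia in CSD 1 and CSD 2 and 1517 and 1498 CPM in HC 1 and HC 2, on 127, 35, 148 and 21 UMIs. Nfkbiz had 513, 1043, 595 and 1070 CPM in the same order, with no separation of the conditions. Its mean of 805 CPM was near the 800 CPM of microglia, so that a high level was not particular to microglia.

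Over 36 sums of 9 classes and 4 libraries, on log2(CPM + 10) and among 6866 genes with a mean of at least 20 CPM, the genes whose levels followed Nfkbia most closely were Ier5 (Pearson r = 0.887) and Mcl1 (0.868). Ier5 also led for Nfkbiz (0.835), followed by Litaf, Ccnl1, Casp4 and Plekho1. For Tnfaip3 they were Klk8 (0.961), Lcp1, Samsn1, Cd37 and Cd53. Sums of 1 library share cells, depth and free RNA, so these are descriptions.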
